A study of Mus musculus with 11 samples.

Results

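The 40 interferon-stimulated genes described here are well-known targets of type I interferon, followed through 11 RNA-seq libraries of cultured mouse hippocampal neural stem cells (NSCs). They were chosen by name, as cytosolic sensors, transcription factors, antiviral effectors and regulators of the interferon response, and each of the 40 symbols matched 1 gene ID among the 53801 genes of the deposited tables. The libraries came from primary NSCs kept for 7 days in proliferation medium, which holds EGF and bFGF, or in differentiation medium. The publication does not give the composition of the differentiation medium. In each medium the cells received 1 µM 4HBP or its vehicle, ethanol (EtOH), giving 3 libraries for each of 4HBP and EtOH under proliferation conditions. Under differentiation conditions there were 3 for 4HBP and 2 for EtOH. The sample labels spell 4HBP out as 4-Hydroxybenzoic acid, whereas the publication names it 4-hydroxybenzophenone. No source used here says that replicates were separate animals or cultures, so p-values measure only the spread between these libraries, which may be technical.

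Type I interferons bind a receptor of the subunits IFNAR1 and IFNAR2, whose kinases JAK1 and TYK2 phosphorylate STAT2 among others. STAT2 and IRF9 are subunits of the ISGF3 complex, which binds the interferon-stimulated response element (ISRE) in the promoters of its targets. Interferon gamma signals through its own receptor, and its targets often carry the gamma-activated site (GAS). Neural stem cells are known to hold some interferon-stimulated genes at a standing level without added interferon.

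Library totals ran from 20822921 to 23438463 expected counts, so that 3 counts equalled 0.128 to 0.144 CPM (counts scaled to library size). Of 12 markers of microglia and macrophages, 4 were at 3 counts or fewer in all 11 libraries, Aif1 and Tmem119 were at 0 in all proliferation libraries, and the 12 summed to 4.19 to 6.85 normalised CPM there, mostly from Cd68 and P2ry12. The NSC marker Nes read 457 to 797 normalised CPM in proliferation medium and 86.0 to 96.5 in differentiation medium. Sox2 read 312 to 344 in proliferation medium and 230 to 241 in differentiation medium, so that both markers were lower there. The third 4HBP library of proliferation medium, called 4HBP 3 below, stood apart from its replicates. Its chi-square per gene against 4HBP 1 and 4HBP 2 was 23.8 and 21.4, against 5.34 between those libraries and 9.42 to 11.9 between EtOH libraries. Results in proliferation medium are therefore given for each library.

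Promoter sequences of 30 of the 40 members were found in the RefSeq table (GRCm38.p6), each covering 250 bases before to 50 bases after a start site. The ISRE was searched as GAAANNGAAA on both strands and the GAS as TTCNNNGAA. An ISRE match stood in the promoters of 15 of the 30 members, against 3.99% of the 27025 genes in the table, and 9 of the 15 had more than 1 match. A GAS match stood in 8 of the 30 (26.7%), against 9.55% of all genes, and in 2 members a GAS match overlapped an ISRE match. A match describes the letters only, and none was shown here to be bound.

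The sequences below belong to the members on which the results turn, with ISRE matches in capitals, read 5′ to 3′ on the strand of the gene. Ifitm3, the member called higher in proliferation medium, lies on the minus strand, and its stretch chr7:141010715-141010864 runs from position -120 to position 30 relative to the start, with matches beginning at positions 3 and 20.
Ifitm3: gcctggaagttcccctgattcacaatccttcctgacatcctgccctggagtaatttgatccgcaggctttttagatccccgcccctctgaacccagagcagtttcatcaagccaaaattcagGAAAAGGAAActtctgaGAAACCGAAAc
Ifit3b, the member called lower in proliferation medium, is shown with its close copy Ifit3 from position -200 to position -51, at chr19:34607757-34607906 and chr19:34583329-34583478 on the plus strand, and the 2 matches of each have the same letters.
Ifit3b: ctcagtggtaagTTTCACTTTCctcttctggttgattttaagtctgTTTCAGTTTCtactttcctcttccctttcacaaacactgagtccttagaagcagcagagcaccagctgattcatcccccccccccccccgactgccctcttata
Ifit3: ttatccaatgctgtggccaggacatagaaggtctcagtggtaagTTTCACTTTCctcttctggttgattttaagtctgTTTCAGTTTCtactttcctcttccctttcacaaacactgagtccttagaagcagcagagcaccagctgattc
Ifit2, the member called lower in differentiation medium, had no ISRE match in the window searched, and its 150 bases before the start lie at chr19:34550544-34550693 on the plus strand.
Ifit2: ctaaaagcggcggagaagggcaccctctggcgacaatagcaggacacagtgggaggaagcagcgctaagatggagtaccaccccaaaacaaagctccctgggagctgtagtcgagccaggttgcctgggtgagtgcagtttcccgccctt
Ifit1, Bst2 and Gbp2, which were raised in 4HBP 3, are shown over the 150 bases before the start, at chr19:34640739-34640888 (plus strand), chr8:71537473-71537622 (minus strand) and chr3:142620513-142620662 (plus strand). The 2 matches of Bst2 overlap and form 1 run of capitals. Oasl2 and Xaf1 were also raised in 4HBP 3 (3.85-fold and 2.73-fold) but had no ISRE match in the window and are not shown. The promoters of Rtp4 and Parp14, raised as well, were not in the table.
Ifit1: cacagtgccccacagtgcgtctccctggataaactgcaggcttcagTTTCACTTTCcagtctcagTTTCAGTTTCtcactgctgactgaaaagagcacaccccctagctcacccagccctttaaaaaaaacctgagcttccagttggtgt
Bst2: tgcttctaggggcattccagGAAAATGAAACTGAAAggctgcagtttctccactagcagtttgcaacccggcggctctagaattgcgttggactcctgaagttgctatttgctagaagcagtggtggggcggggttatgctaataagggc
Gbp2: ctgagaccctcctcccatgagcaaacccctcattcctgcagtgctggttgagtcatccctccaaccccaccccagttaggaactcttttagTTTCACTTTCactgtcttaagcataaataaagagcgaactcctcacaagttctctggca

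Compared per transcript length, in TPM (transcript abundance scaled by length and depth), most members were expressed at a low level. The median over the 11 libraries was under 1 TPM for 13 of the 40 members and 5 TPM or more for 15. Ifitm3, a membrane protein that hinders the entry of viruses from endosomes, had the highest median, 36.2 TPM, with a range of 25.8 to 63.9. It was followed by Lgals3bp, a secreted glycoprotein, with a median of 12.2 TPM (4.84 to 18.7), and the guanylate binding protein gene Gbp3 with 12.04 TPM (4.58 to 18.5). Ifi27 had a median of 10.7 TPM (6.41 to 27.5), and Stat2, a subunit of ISGF3, had 9.52 TPM (6.89 to 12.3). The ranges of Lgals3bp, Gbp3, Ifi27 and Stat2 overlap, so their order is not resolved. It also differs by medium, since in the proliferation EtOH libraries Gbp3 (5.29 TPM) and Lgals3bp (6.08 TPM) had lower means than Ifit3 (11.4), Gbp2 (10.7), Ifit3b (9.99), Stat2 (8.35) and Irf9 (8.24). At the other end, Zbp1, a sensor of Z-form nucleic acid, and the oligoadenylate synthetase genes Oas1a and Oas2 never exceeded 3 counts in any of the 11 libraries. Isg15, the ubiquitin-like modifier that often serves as a marker of interferon signalling, held 2 to 9 counts.

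Too few counts kept 10 members out of the test in proliferation medium, namely Dhx58, Zbp1, Oas1a, Oas2, Oasl1, Mx1, Isg15, Usp18, Isg20 and Ifi44. Dhx58 and Usp18 were tested in differentiation medium, which left 32 members there, and 33 members were tested in the fit of all 11 libraries, which also took in Ifi44.

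The first comparison asks whether 4HBP changed these genes in proliferating NSCs. Of the 30 members tested, Ifitm3 rose and Ifit3b fell at an adjusted p under 0.05 (edgeR quasi-likelihood test, Benjamini-Hochberg over all 14449 genes). These 2 calls compare with 7.43% of all genes called, 3.74% higher and 3.69% lower. An unadjusted p under 0.05 was reached by 12 of the 30 members and by 25.1% of all genes. The log2 fold change was above 0 for 22 of the 30 members, with a median of 0.41 against 0.00 over all genes, but the median was 0.10 without 4HBP 3. In bulk RNA, fewer cells of a type and less RNA per cell cannot be told apart.

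Ifitm3 (chr7:141009586-141010770, minus strand, GRCm38) read 19.8, 19.6 and 21.8 normalised CPM in 4HBP 1, 2 and 3, and 14.2, 13.5 and 16.3 in EtOH 1, 2 and 3. All 3 4HBP libraries lay above all 3 EtOH libraries, and 4HBP 3 stood close to its replicates. The log2 fold change was 0.48 ± 0.11 (SE; adjusted p = 0.0360, edgeR) and remained 0.43 without 4HBP 3 (adjusted p = 0.0451). The call ended without 4HBP 1 (adjusted p = 0.0708), 4HBP 2 (0.0800), EtOH 1 (0.130) or EtOH 2 (0.147).

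Ifit3b belongs to the IFIT family, whose proteins bind foreign RNA and which lies in 1 cluster on chromosome 19. It read 8.47, 7.15 and 9.79 normalised CPM under 4HBP and 13.7, 14.6 and 13.6 under EtOH, with no overlap. The log2 fold change was -0.72 ± 0.14 (adjusted p = 0.0188, edgeR) and -0.83 without 4HBP 3 (adjusted p = 0.00686), while without 4HBP 2, EtOH 1 or EtOH 2 the adjusted p was 0.0571, 0.0821 and 0.0913. Ifit3 read 8.91, 8.31 and 13.3 under 4HBP and 14.2, 15.2 and 11.6 under EtOH, so that 4HBP 3 lay among the EtOH libraries. Its adjusted p was 0.203 over the 6 libraries and 0.0242 without 4HBP 3 (edgeR). The copies are hard to count apart, since 27.4% of the 100-base words of the Ifit3b transcripts occur in other genes, all 521 of them in Ifit3. With the counts of both summed, the log2 fold change was -0.57 ± 0.15 (adjusted p = 0.0508, edgeR), and -0.74 without 4HBP 3 (adjusted p = 0.00585). The other members of the family, Ifit1 and Ifit2, were not called (adjusted p = 0.610 and 0.907).

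**Figure D1:**
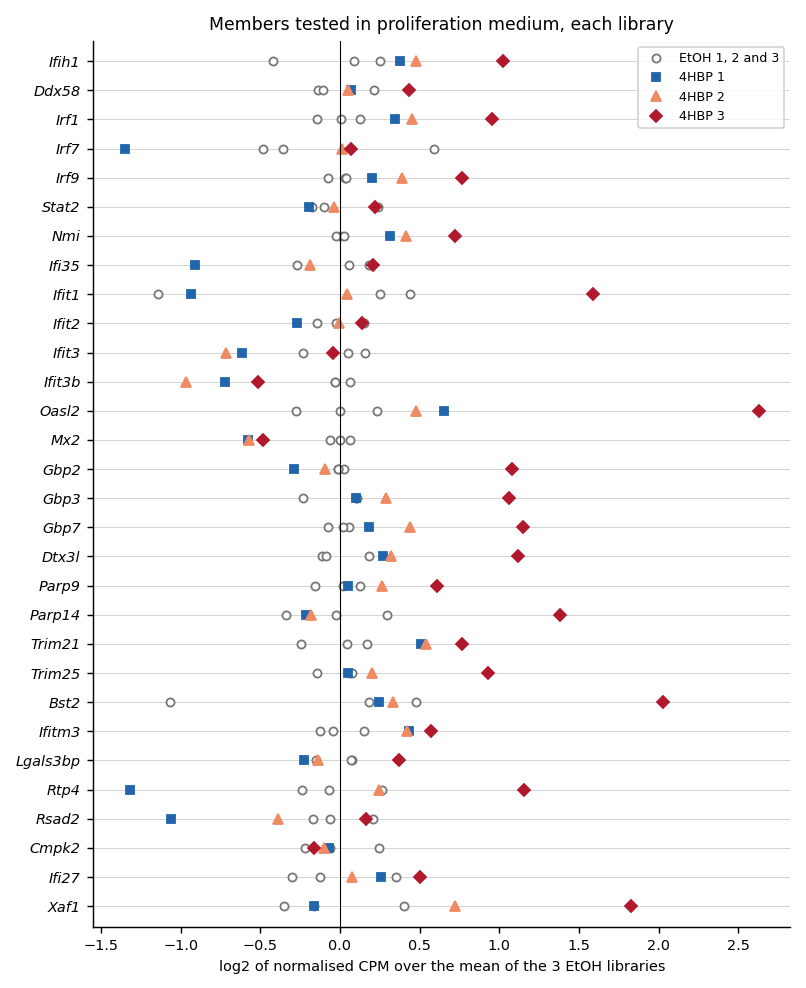
The 30 members tested in proliferation medium, each as log2 of the normalised CPM of a library over the mean of the 3 EtOH libraries; open circles are EtOH, and the square, triangle and diamond are 4HBP 1, 2 and 3. The diamond is the highest of the 6 libraries for 22 members, whereas for Ifitm3, Ifit3b and Mx2 the 3 4HBP libraries stand together.

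The next members by p were Trim21, Irf1, Irf9, Nmi, Gbp7 and Mx2, none of which passed the threshold in this test (alternatives are given at the end). Trim21, a ubiquitin ligase that recognises antibody-coated particles, read 5.68, 5.80 and 6.79 normalised CPM under 4HBP and 3.37, 4.49 and 4.11 under EtOH (log2 fold change 0.61 ± 0.17, edgeR adjusted p = 0.0637). Irf1, a transcription factor induced by interferons, read 8.52, 9.18 and 13.0 against 7.32, 6.07 and 6.74 (0.61 ± 0.18, adjusted p = 0.0727). For both genes the 4HBP libraries lay above all EtOH libraries, although 4HBP 3 carried much of the difference for Irf1, whose log2 fold change was 0.40 without it. Irf9, the DNA-binding subunit of ISGF3, read 16.5, 18.8 and 24.4 against 14.7, 14.7 and 13.6 (0.47 ± 0.15, adjusted p = 0.0859), and its log2 fold change was 0.30 without 4HBP 3. Nmi, a partner of STAT proteins, read 6.17, 6.62 and 8.19 against 4.98, 4.88 and 5.06 (0.49 ± 0.16, adjusted p = 0.0931).

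Gbp7, a guanylate binding protein gene, read 26.2, 31.3 and 51.1 normalised CPM under 4HBP and 21.9, 24.02 and 23.4 under EtOH (log2 fold change 0.65 ± 0.21, edgeR adjusted p = 0.0971), and 0.32 without 4HBP 3. The adjusted p of Gbp7 was 0.0404 without 4HBP 1. Mx2, a dynamin-like antiviral GTPase that the annotation lists as a polymorphic pseudogene, went the other way, with 2.50, 2.51 and 2.67 against 3.56, 3.90 and 3.72 (-0.54 ± 0.18, adjusted p = 0.104). The 3 4HBP values of Mx2 lay within a narrow range below all EtOH values. Over the 30 members, the groups did not overlap for 9 with 4HBP higher (Ifih1, Irf1, Irf9, Nmi, Oasl2, Gbp7, Dtx3l, Trim21 and Ifitm3) and for 2 with 4HBP lower (Ifit3b and Mx2), beside 16.2% and 15.1% of all genes.

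Among the uncalled members, several had high values in 4HBP 3 alone. Relative to the mean of the EtOH libraries, the median over the 30 members was -0.00 in 4HBP 1, 0.17 in 4HBP 2 and 0.74 in 4HBP 3 on the log2 scale, with medians over all genes between -0.00 and 0.01. Each EtOH library, set against the other EtOH libraries, had a median of -0.07, 0.15 and -0.06 (EtOH 1, 2 and 3). The value of 4HBP 2 was thus close to that of EtOH 2. 4HBP 3 was the highest of the 6 libraries for 22 of the 30 members, against 25.6% of all genes. It exceeded the mean of 4HBP 1 and 2 by more than 0.58 (log2) for 16 of the 30 members and lay as far below it for 0, while 7.6% and 5.11% of all genes did so. These values describe a single library and carry no test of the treatment.

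Oasl2, an oligoadenylate synthetase-like gene, showed the largest excess among the 30 members tested. It read 0.930, 0.822 and 3.65 normalised CPM under 4HBP and 0.488, 0.592 and 0.694 under EtOH, so that 4HBP 3 was 3.85-fold above the mean of its replicates. Even so, 4HBP 1 and 2 also lay above all EtOH libraries (log2 fold change 1.61 ± 0.60, edgeR adjusted p = 0.137; 0.57 without 4HBP 3). Ifit1 read 0.343, 0.677 and 1.97 against 0.781, 0.888 and 0.297, and its 4HBP 3 value was 3.52-fold above its replicates. Bst2 (tetherin), which holds budding viruses at the cell surface, read 1.22, 1.31 and 4.21 against 1.17, 0.493 and 1.44, a 3.16-fold excess. In both genes the other 4HBP libraries lay within the EtOH range.

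Rtp4 read 0.538, 1.60 and 3.00 normalised CPM under 4HBP and 1.61, 1.28 and 1.14 under EtOH. Parp14, an ADP-ribosyltransferase, read 4.26, 4.35 and 12.9 against 3.90, 6.07 and 4.86. Xaf1, which binds the apoptosis inhibitor XIAP, read 0.734, 1.35 and 2.90 against 0.732, 1.09 and 0.645. Gbp2 read 15.6, 17.9 and 40.4 against 19.4, 18.9 and 19.0, so that 4HBP 1 and 2 lay below every EtOH library and 4HBP 3 far above. The excess of 4HBP 3 over its replicates was 2.98-fold for Rtp4, 2.95-fold for Parp14, 2.73-fold for Xaf1 and 2.41-fold for Gbp2.

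The remaining 9 of the 16 were Gbp3, Rsad2, Gbp7, Dtx3l, Trim25, Ifi35, Ifit3, Irf7 and Ifih1, at 1.501-fold to 1.82-fold. Without 4HBP 3, the log2 fold change was above 0 for 16 members and below 0 for 14, and 6 members went from above to below 0, among them Ifit1 (-0.35), Rtp4 (-0.33), Parp14 (-0.19) and Gbp2 (-0.19). Of the untested members, Ifi44 held 3, 11 and 36 counts under 4HBP and 2 in each EtOH library, and Usp18, which removes ISG15 from proteins, held 9, 12 and 28 counts against 6, 9 and 5. Of the 25 members tested in proliferation medium with a promoter in the table, 13 had an ISRE match, of which 8 were raised by more than 0.58 in 4HBP 3, as were 6 of the 12 without a match. The mitochondrial share of counts was 8.49% in 4HBP 3 and 8.63% to 9.60% in the other proliferation libraries, and its part in the result was not tested.

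**Figure D2:**
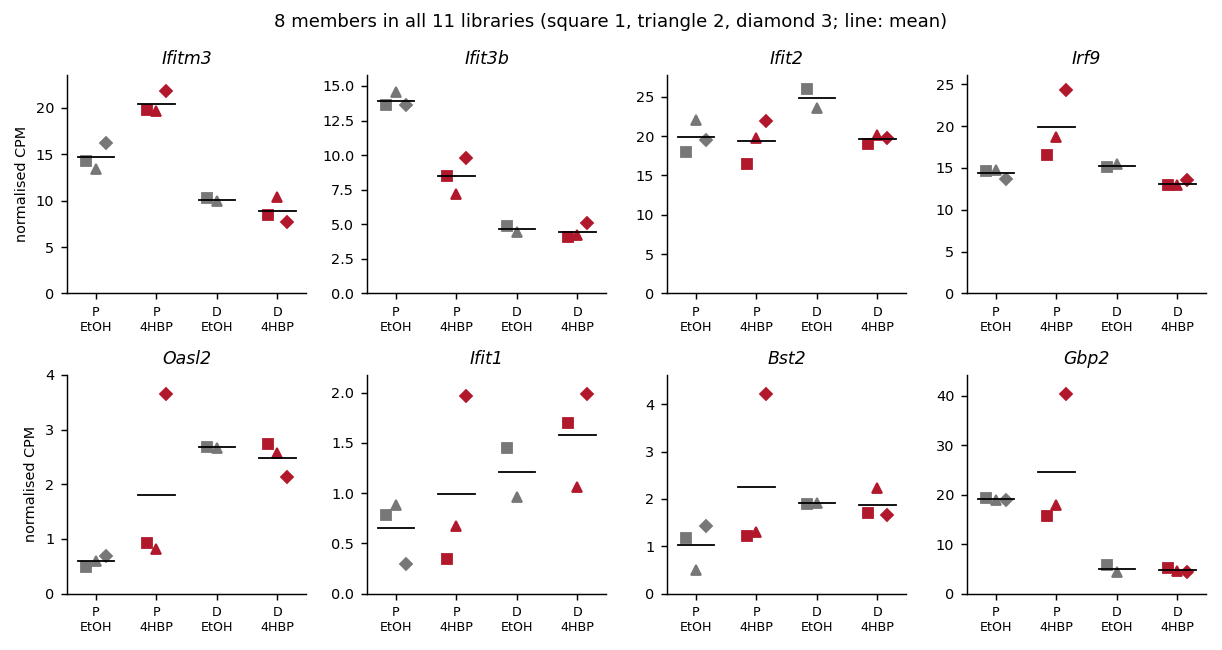
Normalised CPM of 8 members in all 11 libraries (P, proliferation; D, differentiation; squares, triangles and diamonds are replicates 1, 2 and 3; lines are means). Ifitm3 and Ifit3b differ between 4HBP and EtOH in all proliferation libraries, Oasl2, Ifit1, Bst2 and Gbp2 are high in the diamond of the proliferation 4HBP group, and Irf9 lies above EtOH in proliferation and below it in differentiation medium.

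By role, the sensors Ifih1 (MDA5) and Ddx58 (RIG-I), which detect cytosolic RNA, had log2 fold changes of 0.65 and 0.20 (0.43 and 0.06 without 4HBP 3), and neither was called. All 5 tested members of the ISG15 and ubiquitin group (Dtx3l, Parp9, Parp14, Trim21 and Trim25) were above 0, at 0.33 to 0.63, and none was called. Without 4HBP 3 the median of these 5 was 0.16 in place of 0.54. Parp14 was then at -0.19, Trim25 at 0.13, Parp9 at 0.16, Dtx3l at 0.30 and Trim21 at 0.53. Stat2 read 15.7, 17.5 and 20.8 normalised CPM under 4HBP and 16.7, 21.2 and 15.9 under EtOH, and Lgals3bp read 7.74, 8.22 and 11.7 against 8.15, 9.52 and 9.47. Both groups overlapped, with log2 fold changes of 0.00 and 0.03, which were -0.11 and -0.18 without 4HBP 3. Gbp3 read 10.4, 11.8 and 20.2 under 4HBP and 10.3, 8.24 and 10.4 under EtOH, and Ifi27 read 3.23, 2.85 and 3.84 against 2.195, 3.45 and 2.48. Among the other effectors, Rsad2 (viperin) and its genomic neighbour Cmpk2, a mitochondrial nucleotide kinase, had log2 fold changes of -0.34 and -0.11, Ifi27 0.29 and Xaf1 1.02, and none was called (edgeR adjusted p from 0.239 to 0.737). Without 4HBP 3 the values were -0.68 for Rsad2, 0.17 for Ifi27 and 0.35 for Xaf1.

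Upstream of these genes, the ligands were nearly absent. Of 21 interferon genes, 18 had 0 counts in all 11 libraries, including Ifnb1, and the highest count of any ligand in any library was 8.02. The genes of both type I receptor subunits were expressed and not called in proliferation medium. Ifnar1 read 84.7, 80.4 and 80.9 normalised CPM under 4HBP and 80.2, 81.4 and 79.3 under EtOH, and Ifnar2 read 23.8, 26.2 and 23.7 against 21.4, 24.8 and 24.3.

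Of the 92 other genes of the pathway (ligands, receptors, JAK-STAT genes, sensors, IRF factors and further interferon-stimulated genes), 45 were tested in proliferation medium, where 6 rose and 0 fell at an adjusted p under 0.05, beside the 3.74% and 3.69% of all genes called higher and lower. Ifngr2, a subunit of the interferon gamma receptor, read 44.0, 45.9 and 58.9 normalised CPM under 4HBP and 32.1, 27.9 and 29.6 under EtOH (log2 fold change 0.73 ± 0.12, edgeR adjusted p = 0.0118). Tor3a, an ATPase of the torsin family, read 31.9, 41.2 and 43.2 against 20.8, 20.7 and 24.5 (0.82 ± 0.13, adjusted p = 0.0104). Myd88, the adaptor of Toll-like receptors, read 9.01, 9.96 and 12.2 against 5.37, 4.78 and 7.49 (0.82 ± 0.19, adjusted p = 0.0375). In these 3 genes, all 4HBP libraries lay above all EtOH libraries.

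Cxcl10, a chemokine strongly induced by interferon gamma, read 2.74, 2.71 and 11.8 normalised CPM under 4HBP and 0.390, 0.444 and 0.595 under EtOH (log2 fold change 3.58 ± 0.67, edgeR adjusted p = 0.0177). The guanylate binding protein gene Gbp5 read 1.27, 1.40 and 9.69 against 0.0976, 0.542 and 0.347 (3.63 ± 0.93, adjusted p = 0.0472). Both genes were highest in 4HBP 3, and without it the log2 fold changes were 2.51 (adjusted p = 0.00333) and 2.01 (adjusted p = 0.0391). Adar, an RNA-editing deaminase with an interferon-inducible isoform, read 80.7, 84.3 and 100.4 against 67.3, 67.9 and 72.2 (0.36 ± 0.09, adjusted p = 0.0488). Each of the 6 calls was lost without EtOH 1 and without EtOH 2 (adjusted p from 0.0580 to 0.174). Those of Myd88, Adar and Gbp5 were also lost without 4HBP 2 (0.0839, 0.0868 and 0.0519), and those of Adar and Gbp5 without EtOH 3 (0.0709 and 0.108).

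The astrocyte markers Gfap and Aqp4 fell in proliferation medium (log2 fold change -0.68 and -0.66, edgeR adjusted p = 0.00987 and 0.0169). Gfap read 1375, 1467 and 1611 normalised CPM under 4HBP and 2338, 2632 and 2167 under EtOH, so that every 4HBP value, that of 4HBP 3 included, lay below every EtOH value. The part of this shift in the members' values was not tested.

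The second comparison asks the same in differentiation medium, where replicates were closer (biological coefficient of variation 0.0368, against 0.117 in proliferation medium). Of the 32 members tested, Ifit2 fell and 0 rose, beside 2.56% of all 15484 genes called, 1.26% higher and 1.3% lower. An unadjusted p under 0.05 was reached by 5 of the 32 members and by 15.9% of all genes. The median log2 fold change was -0.07 (all genes -0.00), and 23 of the 32 members lay below 0. The median was -0.00 without EtOH 1 and -0.12 without EtOH 2.

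Ifit2 (chr19:34550694-34576419, plus strand, GRCm38) read 19.0, 20.1 and 19.7 normalised CPM under 4HBP and 26.0 and 23.6 under EtOH. All 4HBP libraries lay below both EtOH libraries, and the log2 fold change was -0.35 ± 0.07 (edgeR adjusted p = 0.0184). The call ended without 4HBP 1 (adjusted p = 0.0576) or EtOH 1 (0.274), and under DESeq2 (0.0601), limma (0.255) and the fit of all 11 libraries (1.00). In proliferation medium Ifit2 read 16.5, 19.8 and 21.9 under 4HBP and 18.0, 22.0 and 19.5 under EtOH. Gbp3, the next member by p, read 22.1, 23.8 and 22.5 against 18.9 and 18.7 in differentiation medium and did not pass (log2 fold change 0.27 ± 0.07, adjusted p = 0.0567). The groups did not overlap for 3 members with 4HBP higher (Irf1, Gbp3 and Trim25) and 8 with 4HBP lower (Irf9, Ifit2, Ifit3, Mx2, Usp18, Rsad2, Ifi27 and Xaf1), beside 17.4% and 15.5% of all genes. The other members with the lowest p in proliferation medium read as follows in differentiation medium. Trim21 read 4.97, 5.16 and 4.17 normalised CPM under 4HBP and 5.20 and 4.67 under EtOH, and Irf1 read 8.71, 8.03 and 7.87 against 7.27 and 7.84. Nmi read 2.87, 3.93 and 3.65 against 3.79 and 3.38, and Gbp7 read 12.1, 12.9 and 13.4 against 12.6 and 11.8. Of these, only Irf1 had groups that did not overlap. Mx2 read 7.14, 7.06 and 5.73 against 7.93 and 7.63, and Ifit3b 4.05, 4.23 and 5.12 against 4.89 and 4.42. Among the members with high TPM, Stat2 read 18.1, 18.7 and 20.00 against 20.3 and 17.6, Lgals3bp 16.2, 16.2 and 16.7 against 16.9 and 16.3, and Ifi27 9.41, 8.24 and 8.58 against 9.56 and 9.75. Of the pathway genes, 0 of 48 were called in differentiation medium by edgeR, with 7 at an unadjusted p under 0.05.

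**Figure D3:**
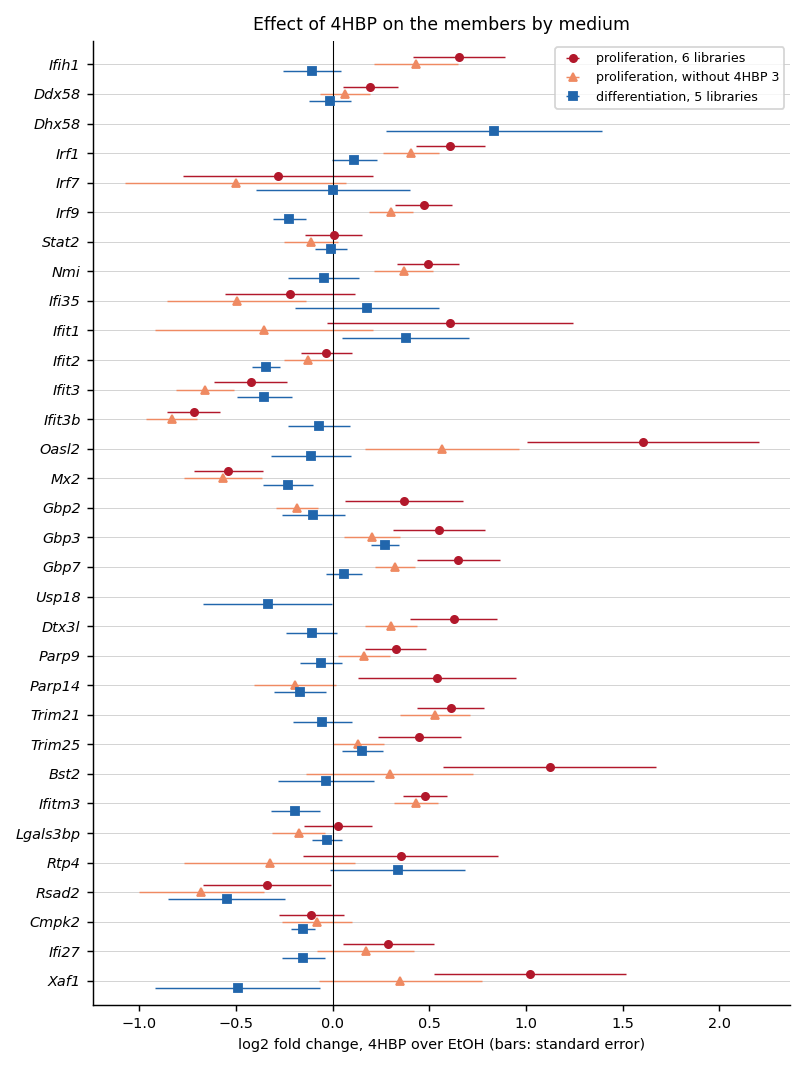
Log2 fold change of 4HBP over EtOH with its standard error for each member tested, in proliferation medium with all 6 libraries (circles), without 4HBP 3 (triangles), and in differentiation medium (squares). The circles lie above 0 for 22 of 30 members, with a median of 0.41, which is 0.10 for the triangles and -0.07 for the squares.

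Members whose 4HBP effect might depend on the medium were tested by the difference of the effects, proliferation minus differentiation, in 1 fit of all 11 libraries. That fit shared its dispersion between the media. Its biological coefficient of variation was 0.0907, against 0.117 for proliferation and 0.0368 for differentiation medium alone. The p-values of this fit therefore do not follow the spread of each medium. Of the 33 members, 0 passed an adjusted p of 0.05 in edgeR, where 4.49% of all 15920 genes did. With an unadjusted p, 9 members were under 0.05, as were 19.9% of all genes. DESeq2 called 2 members, Ifitm3 and Irf9, which were also the nearest to the threshold in edgeR.

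Ifitm3 had an effect difference of 0.67 ± 0.18 (log2; edgeR adjusted p = 0.0519), with 8.49, 10.4 and 7.68 normalised CPM under 4HBP and 10.3 and 9.96 under EtOH in differentiation medium. For Irf9 the difference was 0.69 ± 0.18 (adjusted p = 0.0522). Irf9 read 12.9, 12.9 and 13.5 normalised CPM under 4HBP and 15.1 and 15.4 under EtOH in differentiation medium, so that every 4HBP library lay below EtOH there and above it in proliferation medium. No other member tested in both media did so. Of all genes, 16.2% lay wholly above EtOH in proliferation medium and 15.5% wholly below it in differentiation medium. The share of all genes with both was not counted. Ifit3b had an effect difference of -0.66 ± 0.21 (adjusted p = 0.0996), and Ifit2, the member called in differentiation medium, 0.30 ± 0.16 (adjusted p = 0.308). The pathway genes Tor3a (0.82 ± 0.15, adjusted p = 0.0112) and Ifngr2 (0.67 ± 0.15, adjusted p = 0.0247) were called, and Ifngr2 read 32.5, 31.9 and 32.7 under 4HBP and 30.4 and 31.4 under EtOH in differentiation medium.

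The last comparison sets differentiation against proliferation medium in the EtOH cultures. Of the 33 members, 9 were higher and 7 lower in differentiation medium, 16 in all, where 61.4% of all genes were called, 30.8% higher and 30.6% lower. The members thus split into both directions, with a median log2 fold change of 0.09 (all genes 0.03).

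Cmpk2 was 5.02, 6.95 and 5.60 normalised CPM in the proliferation EtOH libraries and 35.2 and 37.5 in the differentiation ones (log2 fold change 2.63 ± 0.12, edgeR adjusted p = 1.44e-09). Its neighbour Rsad2, transcribed from the opposite strand, read 1.76, 2.12 and 1.64 against 1.67 and 1.46 and was not called (adjusted p = 0.568). Oasl2 read 0.488, 0.592 and 0.694 in the proliferation EtOH libraries, against 2.69 and 2.67 after differentiation (2.17 ± 0.54, adjusted p = 0.00345). The pair of differentiation values were nearly equal, while 4HBP 3 of proliferation medium, at 3.65, was above both.

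Ifi27 read 2.195, 3.45 and 2.48 normalised CPM against 9.56 and 9.75 in the same order (log2 fold change 1.83 ± 0.18, edgeR adjusted p = 2.04e-06). Usp18 read 0.293, 0.444 and 0.248 against 1.15 and 1.08 (1.75 ± 0.48, adjusted p = 0.00649). Mx2 read 3.56, 3.90 and 3.72 against 7.93 and 7.63 (1.06 ± 0.15, adjusted p = 3.52e-05). In all 5 of these genes, the groups did not overlap. Gbp3, Lgals3bp, Ifih1 and Ifit2 were the other members called higher, at 0.32 to 0.96. The call of Ifit2 was lost without EtOH 1 or EtOH 3 of proliferation medium or EtOH 1 of differentiation medium (adjusted p = 0.101, 0.0638 and 0.177), and that of Ifih1 without the same libraries (0.0568, 0.128 and 0.203) or EtOH 2 of differentiation medium (0.0501).

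Lower in differentiation medium was Gbp2, with 19.4, 18.9 and 19.0 normalised CPM in proliferation medium, as opposed to 5.86 and 4.29 (log2 fold change -1.91 ± 0.35, edgeR adjusted p = 0.000366). Ifit3b read 13.7, 14.6 and 13.6 against 4.89 and 4.42 (-1.58 ± 0.16, adjusted p = 1.94e-06), and Ifit3 read 14.2, 15.2 and 11.6 against 5.64 and 6.09 (-1.22 ± 0.20, adjusted p = 0.000139). The sum of both copies fell by 1.39 on the log2 scale (adjusted p = 5.43e-06).

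Gbp7 read 21.9, 24.02 and 23.4 normalised CPM against 12.6 and 11.8 (log2 fold change -0.92 ± 0.22, edgeR adjusted p = 0.00265), and Ddx58 read 16.9, 21.6 and 17.3 against 11.1 and 10.9 (-0.76 ± 0.15, adjusted p = 0.000682). Ifitm3 and Nmi were the other members called lower, at -0.54 and -0.47. The call of Nmi was lost without any 1 of the 5 EtOH libraries (adjusted p from 0.0595 to 0.196) or 4HBP 3 of differentiation medium (0.0501), and also with DESeq2 (0.0528), library totals (0.0988), limma (0.0638), no filter (0.0526) and the replicate number as a block (0.0833). The block also ended the call of Ifih1 (0.0732). Gene families divided here, since Gbp3 rose while Gbp2 and Gbp7, its neighbours on chromosome 3, fell, and Ifit2 rose while Ifit3 and Ifit3b fell. Reads shared between copies bear on Gbp7, of whose 100-base words 10.01% occur in other genes, mostly in the gene model Gm43802, whereas for Gbp3 the share was 0.694%.

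**Figure D4:**
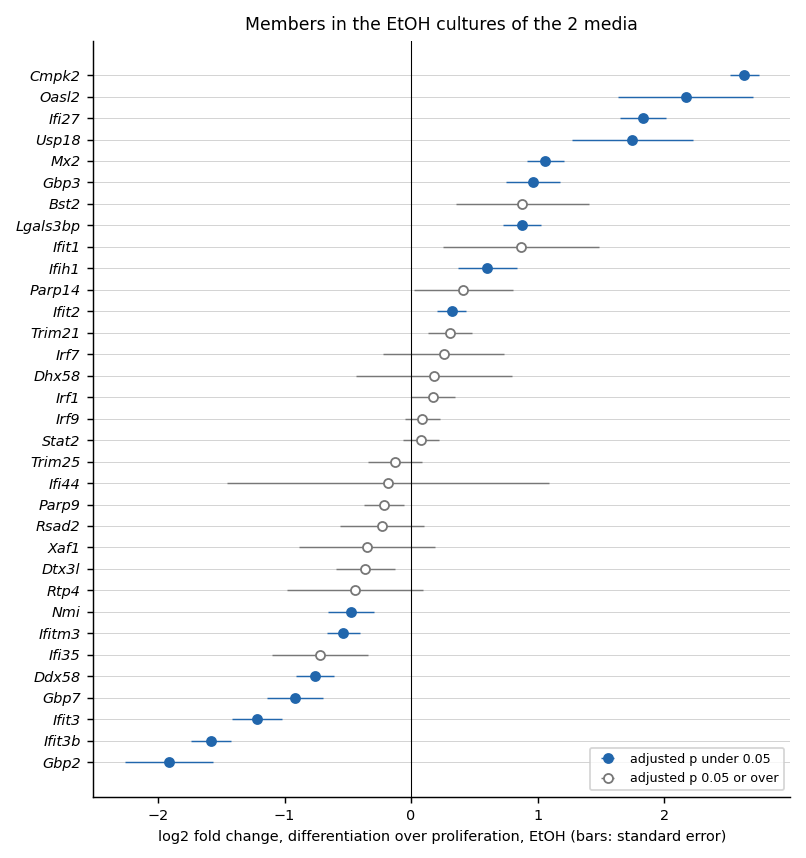
Log2 fold change of differentiation over proliferation medium in the EtOH cultures for the 33 members tested, with its standard error; filled points have an adjusted p under 0.05 and open points do not. The 16 filled points fall on both sides of 0, from Cmpk2 at 2.63 to Gbp2 at -1.91.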

How the data were processed

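RNA of 11 NSC libraries was sequenced as paired reads (TruSeq stranded mRNA). Per the labels and the publication, the authors trimmed reads with cutadapt and quantified them with RSEM 1.3.0 and Bowtie2 2.2.9 against mm10 (GRCm38) with GENCODE vM17. The deposited expected counts are RSEM's estimated counts per gene, which divide reads between similar genes, and were rounded to whole numbers here. The deposited TPM values, scaled by the authors for transcript length and depth, served only to compare levels between genes. Depth was 20822921 to 23438463 counts per library. The strand setting of RSEM is not given in the sources used here.

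Tests used edgeR 4.0.16 (R 4.3.3): filterByExpr, TMM scaling, quasi-likelihood fits per medium for 4HBP against EtOH, and 1 fit of all 11 libraries with a mean per group for the difference between media and the medium comparison. Calls were made at a Benjamini-Hochberg adjusted p under 0.05 over all genes tested. Per-library values are CPM with TMM scaling over 11 libraries. Coordinates are from GENCODE vM21 (GRCm38) for genes. The excess of 4HBP 3 was taken on log2(CPM + 0.1).

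Members and lists were chosen with earlier results of these data known. Values in each library of the comparison concerned were given for members called for 4HBP or for the difference, the 8 with the lowest p in proliferation medium, the 5 higher and 5 lower with the largest change between media, the 5 highest by TPM, and called pathway genes with Ifnb1, Ifnar1 and Ifnar2. A further gene that the rule named is not reported here. Members high in 4HBP 3, with Gbp3, Ifi44, Usp18, Rsad2, Gfap and Aqp4, were singled out after their values were seen. Alternatives were other scalings, no filter, DESeq2 1.42.0, limma 3.58.1 on log2(CPM + 1), other library sets, the replicate number as a block and leaving out each library. Fits were tested on simulated data with the same dispersion for all genes and no deviating library. That check does not cover a library such as 4HBP 3.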

Additional observations from a re-analysis of the deposited data

Results flagged for a closer look

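The effect of 4HBP differed between the media by the test of the difference for the pathway genes Tor3a and Ifngr2, by 0.82 and 0.67 on the log2 scale (proliferation minus differentiation; edgeR adjusted p = 0.0112 and 0.0247). The call of Ifngr2 was lost without 1 library in 6 of the 11 cases (adjusted p from 0.0615 to 0.108), and that of Tor3a without either EtOH library of differentiation medium (0.0533 and 0.0751). Irf9 drew attention because all 3 4HBP libraries lay above EtOH in proliferation medium and all 3 lay below EtOH in differentiation medium. Of all genes, 16.2% lay wholly above EtOH in proliferation medium and 15.5% wholly below it in differentiation medium. The share with both was not counted, so Irf9 cannot be called unusual by this pattern. The effects on Irf9 differed by 0.69 (edgeR adjusted p = 0.0522), which does not pass the threshold. Leaving out 1 library gave 0.52 to 0.80 with an adjusted p from 0.0135 to 0.179. Groups of 3 or fewer libraries were not tested for single outlying values.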

How the results depend on the processing

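The number of members called for 4HBP in proliferation medium was 2, and became 5 with DESeq2, 10 in the fit of all 11 libraries, 7 with no filter, 1 with limma (11.3%, 16.8%, 6.51% and 3.02% of all genes called, against 7.43%), and 11 by no overlap between groups in place of the test, an alternative chosen after seeing the data; leaving out 1 library gave 0 to 3, with 0 without 4HBP 2, EtOH 1 or EtOH 2. Irf1, Irf9 and Gbp7 were called with DESeq2, with no filter and in the 11-library fit, which also called Trim21, Nmi and Mx2. With limma only Ifit3b was called. In differentiation medium the count of 1 (beside 2.56% of all genes called) became 0 with DESeq2, limma and the 11-library fit and 2 with no filter. Leaving out 1 library gave 0 to 1 there. For the difference of effects, the count of 0 became 1 with DESeq2 size factors or library totals, 2 with DESeq2 or voom, 5 with no filter (4.41% to 6.82% of all genes called, against 4.49%), and 0 to 2 without 1 library. The medium comparison gave 13 to 19 calls, where the main fit called 61.4% of all genes. For differentiation medium, the medium comparison, the replicate block below and fits without 1 library, shares of all genes under the alternatives are not given. Those changes in count therefore cannot be read as particular to the members. Samples of equal replicate number did not deviate together (correlations of -0.026, -0.047 and -0.073 in proliferation medium), and with the replicate number as a replicate block the counts were 1, 2, 0 and 14 in the 4 comparisons in this order, with Ifitm3 no longer called in proliferation medium (edgeR adjusted p = 0.0654). The log2 fold change in proliferation medium turned negative without 4HBP 3 for 6 members. For Ifit1, Rtp4, Parp14 and Gbp2, values without 1 library ran from -0.35 to 1.01, -0.33 to 0.77, -0.19 to 0.80 and -0.19 to 0.61. The others were Stat2 and Lgals3bp, at -0.11 and -0.18 without 4HBP 3. The 5 higher and 5 lower members with the largest change between media stayed called in the same direction under each alternative run, while Ifit2, Ifih1 and Nmi did not. The causes were not tested. Members with few counts, such as Isg15 and Oas2, did not pass the filter on low counts.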
